A study of Mus musculus with 70 samples.

Results

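The mature granule cells of the dentate gyrus were followed through 8 genes that mark them in the mouse hippocampus, Prox1, Dsp, C1ql2, C1ql3, Lct, Tdo2, Stxbp6 and Calb1, a set fixed by symbol. All 8 were found among the 24346 genes listed, and all 8 passed the minimum mean of 1 FPKM that left 12994 genes to be tested. FPKM are fragment counts corrected for transcript length and library size, so levels of different genes and libraries share a unit. The FPKM sums of the libraries ran from 382574 in home cage replicate 9 to 469206 in sedentary replicate 4. Comparisons between libraries are therefore approximate.

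Granule cells are the first relay of the hippocampal circuit: they receive the perforant path from the entorhinal cortex and send mossy fibres to the pyramidal cells of CA3. New granule cells are added to this layer throughout adult life, and wheel running is widely known to raise their number in rodents. A mature granule cell is told apart from the pyramidal cells of CA1 and CA3 by the transcription factor Prox1 and by a small set of adhesion, secreted, enzymatic and calcium-binding proteins, to which the other genes described here belong.

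The libraries came from the dorsal hippocampus of 70 adult male C57BL/6J mice, individually housed and 12 weeks of age, with 10 mice in each of 7 groups and 5 of each group in each of 2 harvest cohorts taken on separate days. Home cage mice (0-0-0) neither ran nor were trained, and sedentary mice (0-0-0) did not run but had the object location memory (OLM) acquisition, a 3-min exposure too short to form a long-term memory by itself. The 5 exercise groups had the same acquisition and are named by their days of voluntary wheel running, of sedentary delay and of reactivating running: 14-14-0, 14-7-2, 14-7-0, 14-0-0 and 0-0-2. Tissue of every trained group was taken 1 h after the acquisition, no group carried a transgene or a deletion, and the dissection took the dorsal hippocampus whole, without separating its subfields.

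Of the 70 libraries, sedentary replicate 6 stood apart, and the tests of the 8 genes against sedentary are therefore given with and without it. Replicate 4 of 14-7-0 listed 10279 genes at 0 FPKM, more than any other library, and no pair of libraries held identical values. The deposited FPKM hold no read counts, and the read totals that the study lists by lane and barcode could not be tied to these libraries, so no depth is given per library. Because the tissue is a mixture, fewer granule cells and less of an RNA in each granule cell cannot be told apart in any value below.

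The promoters of the 3 genes that lie on chromosome 1 show how unlike these genes are at their start sites although their levels moved together among libraries. Each line gives the 250 bases before the RefSeq start of the gene on mouse build GRCm38.p6 (mm10), 5′ to 3′ on the gene's own strand: chr1:190170828-190171077 on the minus strand for Prox1, chr1:120340332-120340581 on the plus strand for C1ql2 and chr1:128328319-128328568 on the minus strand for Lct. Capitals mark CAGATG, an E-box of the kind that NeuroD family factors prefer, searched on both strands (CATCTG on the other).
Prox1: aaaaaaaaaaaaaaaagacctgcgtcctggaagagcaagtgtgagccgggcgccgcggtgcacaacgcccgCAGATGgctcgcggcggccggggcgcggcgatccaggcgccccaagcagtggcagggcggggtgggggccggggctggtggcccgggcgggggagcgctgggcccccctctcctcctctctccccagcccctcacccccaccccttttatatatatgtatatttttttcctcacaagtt
C1ql2: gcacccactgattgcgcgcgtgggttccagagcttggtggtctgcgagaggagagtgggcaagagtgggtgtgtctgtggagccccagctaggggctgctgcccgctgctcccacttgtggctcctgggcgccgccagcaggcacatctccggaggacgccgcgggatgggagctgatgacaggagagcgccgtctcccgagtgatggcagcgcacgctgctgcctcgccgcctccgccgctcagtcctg
Lct: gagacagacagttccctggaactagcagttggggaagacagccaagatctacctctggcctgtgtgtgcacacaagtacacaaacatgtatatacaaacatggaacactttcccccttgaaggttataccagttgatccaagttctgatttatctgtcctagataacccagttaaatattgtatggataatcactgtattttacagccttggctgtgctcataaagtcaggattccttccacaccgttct
RefSeq promoter entries were matched for 7 of the 8 genes, with a second start for Prox1, and Calb1 is named here without one. The motif occurred once, in the Prox1 window shown, against 14.4% of 32851 promoters of the same length. TATAAA, the TATA box letters, also searched on both strands, was found in the Prox1 window shown and in that of Tdo2, against 12.4% of all promoters. The base composition differed widely: GC made up 72.4% of the Dsp window, 68.8% of C1ql2, 66.4% of C1ql3, 65.2% of Stxbp6, 64.8% of the Prox1 window shown, 46.4% of Tdo2 and 42.8% of Lct, beside a median of 52.4% over all promoters. A match of letters is a description of the sequence and not a measured binding site.

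The genes spanned a wide range of levels. Over the 69 libraries without sedentary replicate 6, the median FPKM was 85.0 for C1ql3, 51.3 for Stxbp6, 43.0 for Calb1, 40.1 for C1ql2, 24.3 for Prox1, 19.8 for Lct, 9.499 for Dsp and 7.34 for Tdo2. C1ql3 was thus above 92.9% of the genes tested and Tdo2 above 38.7%. The steps from C1ql3 to Stxbp6, from C1ql2 to Prox1 and from Lct to Dsp held in 69 of 69 libraries. Neighbouring genes that changed places in some libraries were Prox1 and Lct (Prox1 higher in 63 of 69), Dsp and Tdo2 (Dsp higher in 57), Stxbp6 and Calb1 (Stxbp6 higher in 55) and Calb1 and C1ql2 (Calb1 higher in 43), and the medians of the last pair differed by less than the SD of either gene over the libraries.

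**Figure D1:**
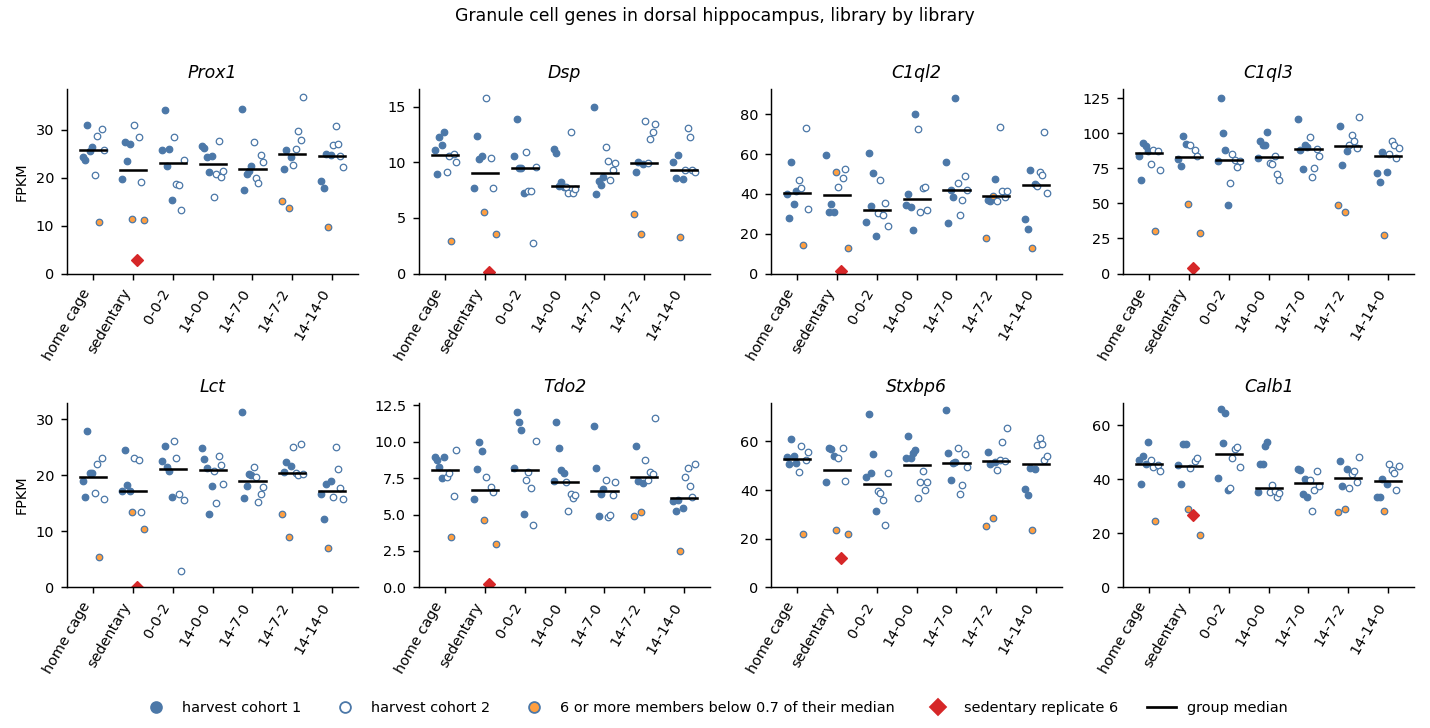
FPKM of the 8 granule cell genes (y axes, each from 0) in the 10 libraries of each of the 7 groups (x axes). Filled points are harvest cohort 1 and open points cohort 2, bars are group medians, orange points are the libraries in which at least 6 of the 8 genes were below 0.7 times their median, and the red diamond is sedentary replicate 6, the lowest point of every panel but that of Calb1.

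Prox1, the homeobox transcription factor that sets and maintains granule cell identity (gene on chromosome 1, 190118035 to 190170827, minus strand), had lowest, median and highest values of 2.91, 21.6 and 30.9 FPKM in sedentary mice. Its values were 10.7, 25.7 and 31.0 in home cage mice. Low libraries stood under the rest in both groups, replicates 4, 6 and 9 in sedentary and replicate 7 in home cage mice, and the others overlapped along most of their range. In the groups that ran without a delay, Prox1 was at 13.3, 23.1 and 34.2 FPKM in 0-0-2 and at 16.0, 22.8 and 27.7 FPKM in 14-0-0. The values were 17.5, 21.9 and 34.4 in 14-7-0 and 13.6, 25.0 and 36.8 in 14-7-2. With 9.70, 24.6 and 30.8 FPKM in 14-14-0, every group overlapped the sedentary one, whose median was the lowest of the 7 with all libraries and the fourth from the lowest without sedentary replicate 6. The log2 difference from sedentary ran from 0.35 in 0-0-2 to 0.48 in home cage (SE 0.31 to 0.34, limma p at least 0.167) and, without sedentary replicate 6, from 0.067 in 0-0-2 to 0.20 in home cage (p at least 0.369).

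Dsp encodes desmoplakin, the protein that ties desmosomes to intermediate filaments (chromosome 13, 38151294 to 38198577, plus strand). Its lowest, median and highest FPKM were 0.143, 8.99 and 15.8 in sedentary mice, and the second lowest sedentary library, replicate 9, had 3.56. In home cage mice they were 2.92, 10.6 and 12.7 and in 0-0-2 mice 2.76, 9.48 and 13.9. Each of these 3 groups had at least 1 library far below its own median, which neither 14-0-0 nor 14-7-0 had, with 7.18, 8.99 and 14.9 in 14-7-0 and 7.21, 7.84 and 12.7 in 14-0-0. The 14-7-2 values were 3.51, 9.97 and 13.7 and the 14-14-0 values 3.30, 9.31 and 13.1. The order of the group medians, from 14-0-0 to home cage, was thus not the order of the lowest libraries. Differences from sedentary lay from 0.47 in 0-0-2 to 0.65 in 14-7-0 on the log2 scale (SE 0.52 to 0.55, limma p at least 0.230), and from -0.05 in 0-0-2 to 0.13 in 14-7-0 without sedentary replicate 6 (p at least 0.541).

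C1ql2 and C1ql3 are secreted C1q-like proteins that sit in the cleft of mossy fibre and other synapses, where they bind presynaptic neurexin and postsynaptic partners. C1ql2 (chromosome 1, 120340582 to 120343174, plus strand) was at 1.08, 39.4 and 59.4 FPKM (lowest, median, highest) in sedentary and at 14.2, 40.6 and 73.0 FPKM in home cage mice. Its spread was wide in every group, with 19.1, 32.2 and 60.5 in 0-0-2 and 21.7, 37.3 and 80.4 in 14-0-0. The highest library of all was 14-7-0 replicate 4, the one with the most genes listed at 0. The values of C1ql2 in 14-7-0 were 25.4, 42.2 and 88.4. They were 17.8, 38.7 and 73.5 in 14-7-2 and 12.8, 44.5 and 71.0 in 14-14-0. All 6 groups overlapped sedentary, from which C1ql2 differed by 0.34 in 0-0-2 to 0.69 in 14-7-0 on the log2 scale (SE 0.53 to 0.55, limma p at least 0.202). Without sedentary replicate 6 the range was from -0.16 in 0-0-2 to 0.19 in 14-7-0 (p at least 0.449).

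C1ql3 (chromosome 2, 13001887 to 13010864, minus strand), the highest of the 8 genes, was at 3.79, 82.9 and 97.97 FPKM in sedentary and at 30.7, 85.7 and 92.8 FPKM in home cage mice. In the former the lowest library was replicate 6 and the next replicate 9, with 28.8, and in the latter it was replicate 7. The groups that ran without a delay had 48.9, 80.6 and 125 FPKM in 0-0-2 and 66.6, 83.1 and 100.7 in 14-0-0. After a sedentary delay C1ql3 was at 69.2, 88.5 and 111 FPKM in 14-7-0 and at 27.4, 83.7 and 94.6 FPKM in 14-14-0. Its 14-7-2 values, 43.6, 90.8 and 111 FPKM, had the highest median of the 7 groups, and again all groups overlapped. The log2 differences from sedentary ran from 0.44 in 14-14-0 to 0.67 in 14-7-0 (SE 0.43 to 0.46, limma p at least 0.135), and from 0.013 in 14-14-0 to 0.25 in 14-7-0 without sedentary replicate 6 (p at least 0.185).

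Lct and Tdo2 encode enzymes better known from other organs: lactase, which splits lactose in the gut, and tryptophan dioxygenase, which opens the kynurenine pathway in the liver. Lct (chromosome 1, 128284756 to 128328318, minus strand) was at 0.0483, 17.2 and 24.5 FPKM in sedentary mice. The next lowest sedentary library had 10.4, so replicate 6 alone was near 0. In home cage mice Lct was at 5.38, 19.6 and 27.97 and in 0-0-2 mice at 2.91, 21.2 and 26.0 FPKM. Both groups held 1 library several-fold under their median, home cage replicate 7 and 0-0-2 replicate 8. The other values were 13.1, 21.0 and 24.9 in 14-0-0, 15.2, 18.9 and 31.4 in 14-7-0, 8.96, 20.5 and 25.6 in 14-7-2 and 6.94, 17.3 and 25.0 in 14-14-0. In every group but 0-0-2, where Tdo2 was further from sedentary, Lct had the largest fitted difference of the 8 genes, from 0.60 in 14-14-0 to 0.88 in 14-0-0 on the log2 scale, with SEs of 0.66 to 0.71 (limma p at least 0.198). They shrank to values from -0.09 in 14-14-0 to 0.19 in 14-0-0 without sedentary replicate 6 (p at least 0.229).

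Tdo2 (chromosome 3, 81958412 to 81975728, minus strand), the lowest of the 8 genes, had 0.214, 6.69 and 9.97 FPKM in sedentary mice and 3.43, 8.05 and 9.45 FPKM in home cage mice. The 2-day runners of 0-0-2 had 4.29, 8.07 and 12.1 and the 14-day runners of 14-0-0 had 5.24, 7.26 and 11.3 FPKM. After the delays the values were 4.85, 6.59 and 11.1 in 14-7-0, 4.91, 7.57 and 11.6 in 14-7-2 and 2.50, 6.10 and 8.48 in 14-14-0. The median was highest in 0-0-2 and lowest in 14-14-0, and their libraries overlapped over most of their range. Against sedentary the log2 difference ran from 0.31 in 14-14-0 to 0.73 in 0-0-2 (SE 0.45 to 0.46, limma p at least 0.131), and without sedentary replicate 6 it ran from -0.13 in 14-14-0 to 0.29 in 0-0-2 (p at least 0.205).

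Stxbp6, also called amisyn, binds syntaxin and restrains SNARE-driven vesicle fusion (chromosome 12, 44852484 to 45075118, minus strand). It was at 11.999, 48.4 and 57.4 FPKM in sedentary, 22.0, 52.9 and 60.9 in home cage and 25.8, 42.5 and 71.2 in 0-0-2 mice. The groups that began with 14 days of running had 36.6, 50.3 and 62.1 in 14-0-0, 38.4, 51.1 and 72.8 in 14-7-0, 25.2, 51.8 and 65.6 in 14-7-2 and 23.6, 50.7 and 61.5 in 14-14-0. The 0-0-2 group had both the lowest median and one of the highest single libraries, replicate 1. The log2 differences from sedentary lay from 0.15 in 0-0-2 to 0.42 in 14-7-0 (SE 0.24 to 0.27, limma p at least 0.101), and from -0.037 in 0-0-2 to 0.23 in 14-7-0 without sedentary replicate 6 (p at least 0.210).

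Calb1 encodes calbindin, the calcium buffer that fills mature granule cells and is also made by CA1 pyramidal cells and some interneurons (chromosome 4, 15881264 to 15906709, plus strand). Of the 8 genes it was the one least marked by sedentary replicate 6, which had 26.7 FPKM, above the 19.4 of sedentary replicate 9. The sedentary libraries had 19.4, 44.8 and 53.1 FPKM and the home cage libraries 24.4, 45.5 and 53.7. The 0-0-2 libraries, at 36.1, 49.5 and 65.9, had the highest median and the 14-0-0 libraries, at 33.4, 36.7 and 53.8, the lowest. Values were 28.3, 38.7 and 43.8 in 14-7-0, 27.7, 40.6 and 48.0 in 14-7-2 and 28.2, 39.2 and 45.7 in 14-14-0. The difference between 0-0-2 and sedentary was 0.32 ± 0.17 (log2, SE, n = 10 and 10) with a limma p of 0.0725, the smallest of all 48 tests of these genes against sedentary, and 0.26 ± 0.17 without sedentary replicate 6 (p = 0.134). Without any 1 of sedentary replicates 2 and 3 or 0-0-2 replicates 4 and 5, that limma p was under 0.05, from 0.0427 to 0.0492, with a difference of 0.37. In the other 5 comparisons it lay between -0.035 and 0.15.

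In limma fits of each pair of groups with all libraries and no covariate, no granule cell gene was called against sedentary. At an unadjusted limma p under 0.05, 0 of 8 were called in 14-0-0, where 9.15% of all genes tested were called in either direction. The count was also 0 of 8 in 14-7-0 (3.26% of all genes), 14-7-2 (4.39%), 14-14-0 (4.95%), 0-0-2 (2.37%) and home cage (2.30%). It was 0 of 8 in the direct comparisons of 14-0-0 with 14-7-0 (5.63%) and of 14-7-2 with 14-7-0 (5.39%). At these shares a count of 0 of 8 does not set the granule cell genes apart from other genes. The smallest adjusted p of a granule cell gene in these 8 comparisons was 0.661, by Benjamini-Hochberg over the 12994 genes. By a second tool, a Cyber-T style test on FPKM, 2 genes were called in 1 of the 8 comparisons, Calb1 and Tdo2 in 0-0-2, where that test called 1.47% of all genes. An F test over the 7 groups called 0 of 8 (7.63% of all genes), with limma p from 0.109 for Calb1 to 0.588 for C1ql2, and 0 of 8 without sedentary replicate 6 (8.47% of all genes, p at least 0.115).

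The direction of the fitted differences was shared, and most of its size came with 1 library. All 6 groups were compared with the same 10 sedentary libraries, so their differences are not independent of each other. With all libraries, 46 of the 48 log2 differences were above 0, and both exceptions were Calb1. The home cage median of the 8 genes was 0.50, that of 0-0-2 was 0.41 and that of 14-14-0 was 0.39, while 14-7-2 had 0.57, 14-7-0 had 0.55 and 14-0-0 had 0.56, where the median of all genes tested was between -0.010 and 0.0083. Without sedentary replicate 6 the same medians were, in this order, 0.11, 0.022, 0.012, 0.14, 0.15 and 0.14, and 39 of 48 differences were above 0. No gene was called in any group without that library either, when the share of all genes called was 10.3% for 14-0-0, 3.29% for 14-7-0, 3.58% for 14-7-2, 6.97% for 14-14-0, 2.52% for 0-0-2 and 3.15% for home cage. The 95% intervals of the 48 differences then lay between -0.69 and 0.75 on the log2 scale. With all libraries these intervals were wider, between -0.81 and 2.25, so sizeable differences could have gone uncalled.

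**Figure D2:**
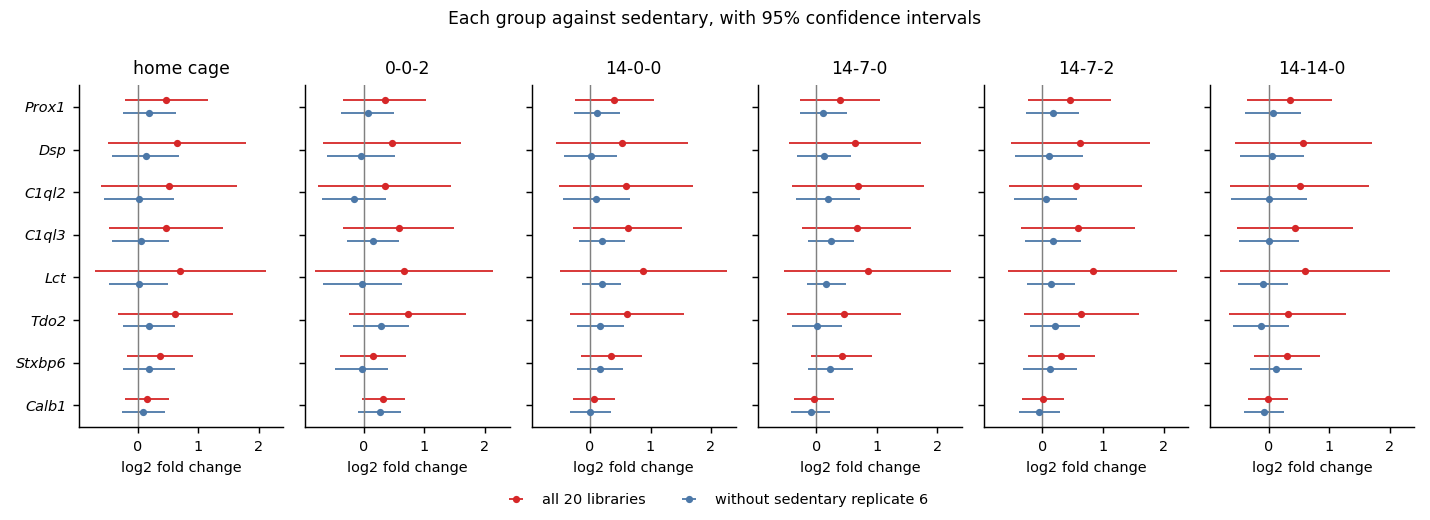
Log2 difference from sedentary (x axes) of the 8 granule cell genes in 6 groups, 1 panel each, with 95% limma intervals, in red from all 20 libraries of a comparison and in blue without sedentary replicate 6. Every interval crosses 0, and the blue points lie between -0.16 and 0.29.

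Sedentary replicate 6 held the lowest value of 70 libraries for 7 of the 8 genes, 87.5%, where 17.8% of all genes tested had their lowest value in it. Calb1, the exception, was the third lowest there. The median of the other libraries was 409.6-fold above its level for Lct, 66.3-fold for Dsp, 37.1-fold for C1ql2, 34.2-fold for Tdo2, 22.4-fold for C1ql3, 8.34-fold for Prox1, 4.27-fold for Stxbp6 and 1.61-fold for Calb1. The genes therefore were not lower in 1 proportion, and the ones nearest to the other libraries, Calb1, Stxbp6 and Prox1, stayed well above 0 in that library. Summed over the 8 genes, the library had 46.9 FPKM, against a median of 280.3 in the others.

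Markers of other cells moved in the same library, and their part in its granule cell values was not tested. Of 9 other granule cell genes 6 were at their lowest there (summed level 76.6 FPKM, median of the others 209), and so were 4 of 5 CA1 genes (84.9 against 194) and 3 of 5 CA3 genes (77.9 against 121). All 6 oligodendrocyte genes were at their highest, with a summed level of 6891 FPKM against 2748. Of 6 inhibitory neuron genes, Gad1, Gad2 and Slc32a1 were at their highest and Pvalb and Vip at their lowest (904 against 518). Of 6 thalamus genes, Prkcd and Zic1 were at their highest (summed level of the list 205 against 29.3) and made up most of that sum. Tcf7l2 and Slc17a6 were at ranks 67 and 69 from the lowest, but Lef1 and Rora at ranks 6 and 5. Of the 4 mossy cell genes Drd2 and Calb2 were at their highest (147 against 11.1), with Calb2 alone at 121 FPKM. The other mossy cell genes, Calcrl and Csf2rb2, were at ranks 4 and 8 from the lowest. Of 6 newborn granule neuron genes, Neurod1 was at its lowest and Igfbpl1, which marks young neurons, at its highest. The choroid plexus sum, 122 FPKM, was close to the median of the other libraries. Of 14 genes for partners of the proteins described here, such as synaptic receptors, desmosome proteins, kynurenine enzymes and SNAREs, 4 were at their lowest and 3 at their highest.

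Granule cell genes were low together in 6 further libraries. At least 6 of the 8 were below 0.7 times their median over all libraries in 7 libraries: sedentary replicates 4, 6 and 9, 14-7-2 replicates 0 and 3, home cage replicate 7 and 14-14-0 replicate 3. These are 4 libraries of harvest cohort 1 and 3 of cohort 2, and they include none of 14-0-0, 14-7-0 or 0-0-2. In 5 of them all 8 genes were low, whereas 48 libraries had no low gene and 13 had 1 or 2. Another 2, replicates 4 and 8 of 0-0-2, had 5 and so were just short of the limit. In no library were 6 or more genes above the median by the inverse of that ratio. Beside sedentary replicate 6, the summed level was 111 FPKM in sedentary replicate 9, 114 in home cage replicate 7 and in 14-14-0 replicate 3, 158 in 14-7-2 replicate 0, 172 in 14-7-2 replicate 3 and 188 in sedentary replicate 4.

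Other marker lists moved with these libraries. The 9 other granule cell genes had a summed level among the 8 lowest of 70 in all 7 libraries. The 6 oligodendrocyte genes had 5 or 6 members above their median in all 7, with sums from 3181 to 6891 FPKM. The 5 CA3 genes, which mark the field next to the dentate gyrus, had the 4 highest sums of all 70 libraries in 4 of the 7, with 279.7 FPKM in 14-7-2 replicate 3, 239.8 in home cage replicate 7, 194 in sedentary replicate 9 and 183 in sedentary replicate 4, against a median of 121. In 14-7-2 replicate 0 and 14-14-0 replicate 3 all 5 CA3 genes were also above their median, with sums of 158 and 149.5, and in sedentary replicate 6 none was. CA1 genes took no common direction, with sums from 84.9 to 268 FPKM. The part of these cell types in the granule cell values was not tested.

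**Figure D3:**
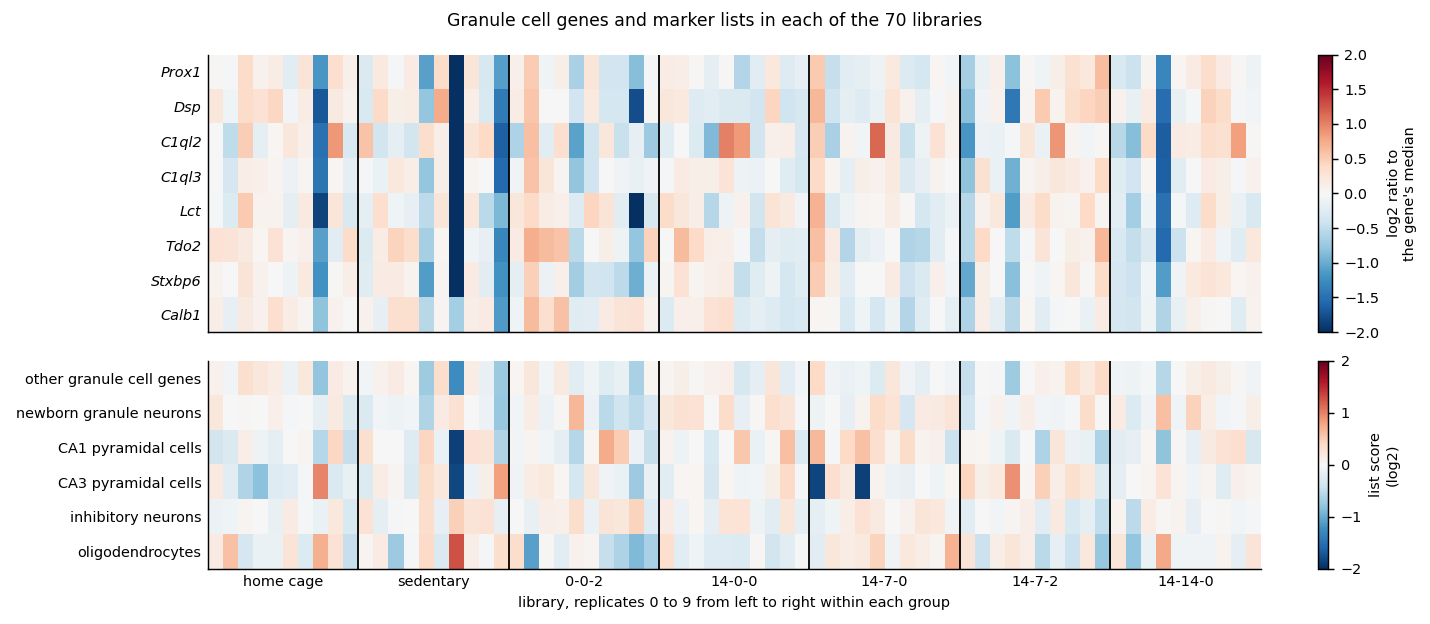
Heat map of the 70 libraries (columns, replicates 0 to 9 of each group) with the log2 ratio of each of the 8 granule cell genes to its median over all libraries (upper rows, colour limited to ±2) and the score of 6 marker lists, the mean over their genes of log2(FPKM + 0.1) less the gene's median (lower rows). Low columns of granule cell genes stand at the 7 libraries named in the text, of which 4 have the highest sums of CA3 genes.

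Some libraries showed a split between the genes. In 0-0-2 replicate 8, Lct was at 0.15 and Dsp at 0.29 times the median, while C1ql2 was at 0.89, C1ql3 at 0.90 and Calb1 at 1.22 times. The CA3 sum there was 89.5 FPKM and the oligodendrocyte sum 1482, both among the 7 lowest, and all 6 inhibitory neuron genes were above their median. Among the 9 genes of the wider granule cell list, none was above its median in that library. At the other end, 0-0-2 replicate 1 had 5 of the 8 genes, and 14-7-0 replicate 0 had 4, above the median by the inverse of the 0.7 ratio.

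Among libraries the 8 genes varied together. Over the 69 libraries without sedentary replicate 6, with group means removed, Pearson's r of the 28 pairs of log2 levels ran from 0.37 for Lct and Calb1 to 0.93 for Prox1 and Stxbp6, with a median of 0.77. Spearman's rho ran from 0.21 for C1ql2 and Tdo2 to 0.86 for Tdo2 and Stxbp6, with a median of 0.63. By permutation with Benjamini-Hochberg adjustment over the 28 pairs, r passed 0.05 in all 28 (largest adjusted p = 0.00302) and rho in 27, the exception being C1ql2 and Tdo2 (adjusted p = 0.0810). Without the 2 libraries farthest from the median of the first gene of a pair, r ran from 0.29 to 0.90, with a median of 0.71. The median was 0.77 in harvest cohort 1 and 0.72 in cohort 2. Stxbp6 was the gene most like the others, with a median r of 0.85, and C1ql2 the least, with 0.53.

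**Figure D4:**
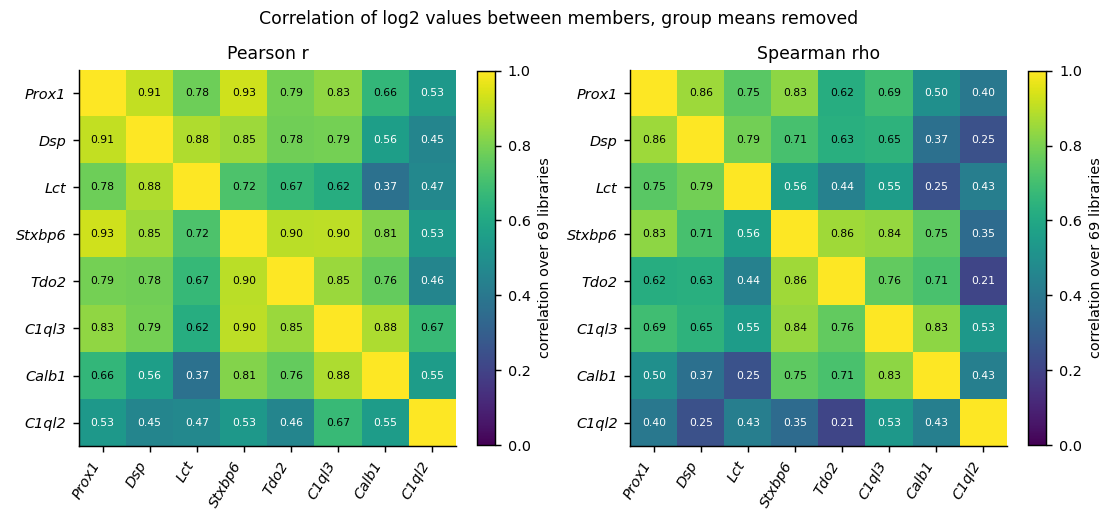
Pearson's r (left) and Spearman's rho (right) of log2 levels between the 8 granule cell genes over 69 libraries, group means removed and sedentary replicate 6 left out. All values are positive, and the C1ql2 row is the darkest, with a median r of 0.53 beside 0.85 for Stxbp6.

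The genes whose levels followed the mean of the 8 most closely, by Spearman's rho over the same 69 libraries, were Arsj (0.85), Npy1r (0.84), Btbd3 (0.83), Arhgap20 (0.83), Trpc6 (0.82), Plekha2 (0.82), Lrrtm4 (0.82), Sema5a (0.81), Syn3 (0.81) and Mef2c (0.81). Npy1r is a receptor of neuropeptide Y, Lrrtm4 a postsynaptic adhesion protein and Mef2c an activity-regulated transcription factor. Trpc6 and Sema5a belonged to the 9 other granule cell genes, whose rho ran from 0.33 for Pdzd2 to 0.82. Gene by gene, Prox1 was most like Sema5a (0.89) and Syn3 (0.88), and Dsp most like Sema5a (0.90) and Plekha2 (0.88). C1ql2 was most like Jun (0.87), a subunit of the AP-1 transcription factor, and Rasl10a (0.86). Lct was most like Adcy1 (0.91), the calcium-stimulated adenylyl cyclase, and Pla2g2f (0.88). C1ql3 was nearest to Stxbp6 (0.84) and Calb1 (0.83), Tdo2 to Stxbp6 (0.86) and Npy1r (0.85), Stxbp6 to Npy1r (0.89) and Tdo2 (0.86), and Calb1 to C1ql3 (0.83) and Zdhhc15 (0.78). The points share the libraries and the composition of each tissue piece, so these values describe likeness only.

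The comparison of 14-7-2 with 14-7-0 asks what 2 days of reactivating running changed after a 7-day delay. Here the mean log2 differences of the granule cell genes had opposite signs in the harvest cohorts, while the medians of cohort 1 were split. With both cohorts, log2 differences lay between -0.14 for C1ql2 and 0.19 for Tdo2. In cohort 1, Stxbp6 was at 43.9, 51.4 and 72.8 FPKM (lowest, median, highest of 5) in 14-7-0 and at 25.2, 50.9 and 55.7 in 14-7-2. In cohort 2 it was at 38.4, 49.4 and 57.2 in 14-7-0 and at 48.2, 52.3 and 65.6 in 14-7-2. The 14-7-2 libraries thus reached lower than the 14-7-0 libraries in cohort 1 and lay higher in cohort 2, with overlap in both. C1ql3 had 74.3, 90.3 and 111 FPKM in 14-7-0 and 43.6, 77.3 and 105 in 14-7-2 in cohort 1. In cohort 2 C1ql3 had 69.2, 83.8 and 97.3 and 89.6, 94.6 and 111. Of these cohort 1 values the lowest of 14-7-2 belong to replicates 0 and 3, 2 of the 7 libraries with low granule cell genes.

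In cohort 1 alone all 8 log2 differences of 14-7-2 from 14-7-0 were below 0, from -0.44 for C1ql2 to -0.098 for Calb1, and limma called 0 of them at an unadjusted p under 0.05, where it called 4.17% of all genes. In cohort 2 alone all 8 were above 0, and 5 were called, where 5.20% of all genes were called. These were Tdo2 (0.49, p = 0.0124), Dsp (0.33, p = 0.0128), Lct (0.29, p = 0.0267), C1ql3 (0.24, p = 0.0388) and Prox1 (0.32, p = 0.0491), with adjusted p of at least 0.857 by limma. Dsp was at 8.36 to 11.4 FPKM in the 5 cohort 2 libraries of 14-7-0 and at 9.92 to 13.7 FPKM in those of 14-7-2, so the groups overlapped. The interaction of group and cohort in limma, cohort 2 less cohort 1, was 0.63 for C1ql3 (p = 0.0283) and 0.63 for Stxbp6 (p = 0.0386), with an adjusted p of 0.963, and it was called in 3.70% of all genes. Over the 8 comparisons 3 of 64 such limma interaction terms had a p under 0.05, the third being Tdo2 in 14-14-0 against sedentary (1.83, p = 0.0486, 2.03% of all genes called), and without sedentary replicate 6 that term was 0.99 (p = 0.0220, 1.59% of all genes called).

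**Figure D5:**
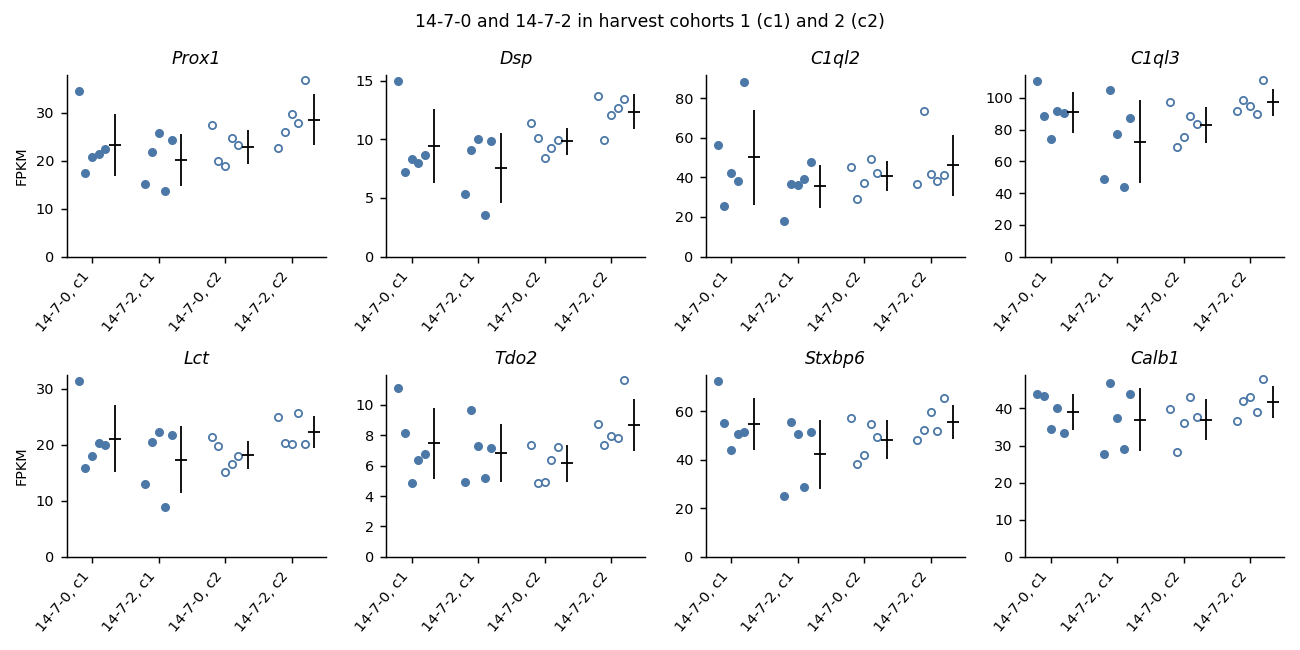
FPKM of the 8 granule cell genes (y axes) in 14-7-0 and 14-7-2, separately for harvest cohorts 1 and 2 (n = 5 each). Points are libraries, bars the mean ± SD. In cohort 1 the 14-7-2 mean is below that of 14-7-0 for every gene, and in cohort 2 above it.

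In the same comparison pyramidal and inhibitory neuron lists moved. Of 5 CA3 genes, Bok, Iyd and Pvrl3 were higher in 14-7-2 than in 14-7-0 (median of the list 0.53 on the log2 scale, all genes 0.0033). Among 5 CA1 genes, Wfs1 and Mpped1 were lower (median of the list -0.34), and so were Gad1, Gad2 and Vip of the 6 inhibitory neuron genes (-0.16) and Mobp and Cnp of the 6 oligodendrocyte genes (-0.32). All of these were limma calls at an unadjusted p under 0.05, with adjusted p of at least 0.534. Of all genes, 2.03% were called upward and 3.36% downward. The 2 lowest CA3 sums of all 70 libraries were in 14-7-0, 36.6 FPKM in replicate 0 and 33.95 in replicate 3, both of cohort 1, while the other 14-7-0 libraries had 103 to 146 and the highest sum of all belonged to 14-7-2 replicate 3. Without those 14-7-0 libraries, an alternative chosen after seeing the data, limma called 0 of 5 CA3 genes (median 0.23), 1 of 5 CA1 genes (Wfs1, median -0.24), 3 of 6 inhibitory neuron genes, 4 of 6 oligodendrocyte genes and 0 of the 8 granule cell genes, where 3.76% of all genes were called. The part of these cells in the cohort pattern was not tested. Between the cohorts themselves, over all groups, 0 of the 8 granule cell genes were called by limma, with or without sedentary replicate 6, where 11.9% and 12.1% of all genes were. Cohort 2 less cohort 1, their log2 differences ran from -0.26 for Lct to -0.029 with all libraries and from -0.12 for Tdo2 to 0.12 for C1ql2 without that library.

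The wider lists around granule cells were examined in the same fits against sedentary. Of 9 other granule cell genes, which include the channel Trpc6 and the synaptic vesicle protein Synpr, 0 were called in any of the 6 groups, with medians from 0.13 to 0.27 on the log2 scale and from 0.0042 to 0.14 without sedentary replicate 6. Synpr was higher in 14-0-0 than in 14-7-0. Of 6 newborn granule neuron genes, 5 passed the minimum level. Of these, Sox11, Sox4 and Neurod1 were called in none of the comparisons, with or without sedentary replicate 6. Igfbpl1, which marks newborn neurons, was at 0.959, 1.65 and 10.9 FPKM in sedentary mice, and the highest of these was replicate 6, without which the highest was 2.59. It was at 2.01, 3.27 and 3.800 in 14-0-0, where 8 of 10 libraries were above 2.59.

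Igfbpl1 was higher in 14-0-0 than in sedentary mice by 0.69 ± 0.31 on the log2 scale (SE, limma p = 0.0385, adjusted p = 0.509) and, without sedentary replicate 6, by 0.96 ± 0.18 (p = 3.89e-05, adjusted p = 0.0858). Its values were 1.47, 2.93 and 4.32 in 14-7-0, 1.82, 2.57 and 3.43 in 14-7-2 and 1.59, 2.44 and 5.94 in 14-14-0, and without that library it was also called in these 3 groups, by 0.81, 0.68 and 0.70 (limma p = 0.00165, 0.00139 and 0.0104, adjusted p at least 0.683). In the groups without the 14 days of initial running it was not called, with 0.812, 2.14 and 8.96 FPKM in 0-0-2 and 1.08, 2.06 and 2.58 FPKM in home cage mice. The high value of 0-0-2 belonged to replicate 4 and that of 14-14-0 to replicate 3, libraries in which 5 and at least 6 of the 8 mature granule cell genes were low. Dcx, the microtubule protein of migrating young neurons, was at 1.42, 2.88 and 3.79 FPKM in sedentary, 2.01, 3.67 and 4.35 in 14-0-0 and 2.56, 3.38 and 4.37 in 14-7-2 mice. Only without sedentary replicate 6 was it called in these exercise groups, by 0.34 and 0.31 (limma p = 0.0458 and 0.0394). Whether Igfbpl1 or Dcx differed between the running groups themselves was tested for 14-0-0 and 14-7-2 against 14-7-0, where neither was called.

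Among the remaining lists, choroid plexus epithelium genes were called upward in 6 of 6 in 14-0-0 (6.11% of all genes were called upward) and in 14-14-0 (3.19%) and in 3 of 6 in home cage mice (1.22%), and in none of 6 in the other groups against sedentary, with the same counts without sedentary replicate 6. They were also called upward in 6 of 6 in 14-0-0 against 14-7-0 (3.602%). The adjusted p of these choroid plexus calls was at least 0.279 with all libraries and at least 0.216 without sedentary replicate 6. Over the libraries other than that one, Ttr alone ran from 15.5 to 21244 FPKM. The part of the amount of choroid plexus in each tissue piece was not tested. Oligodendrocyte genes were called downward in 3 of 6 in 0-0-2 (Mbp, Mag and Mobp, 1.23% of all genes called downward) and, without sedentary replicate 6, in 1 of 6 (Mobp, limma p = 0.0388). In 0-0-2, the group with the highest Calb1 median, their summed level was 1314, 2346 and 3628 FPKM (lowest, median, highest) against 1678, 3085 and 6891 in sedentary mice, of which the highest, replicate 6, was followed by 3797. They were also called downward in 4 of 6 in 14-0-0 against 14-7-0 (2.03%), and the adjusted p of all these oligodendrocyte calls was at least 0.721. Mossy cell, CA1, CA3, thalamus and inhibitory neuron genes were called in no comparison with sedentary when all libraries were used. Without sedentary replicate 6, Grik4 of the CA3 list was called downward in 14-0-0, 0-0-2 and 14-7-0 (the group with the 2 libraries lowest in CA3 genes), Vip of the inhibitory list in 14-7-2 and 14-14-0, Gad1 in 14-7-2, and Zic1 of the thalamus list upward in 14-14-0. Their adjusted p was at least 0.284, and 2.52% to 10.3% of all genes were called in these groups. Of the 14 partner genes 11 were tested and Dsg2, a desmosomal cadherin, was called upward in 14-14-0 against sedentary, the 1 call against sedentary with all libraries. Its difference was 0.43 (limma p = 0.0299), where 3.19% of all genes were called upward. Without sedentary replicate 6 there were 6 more: the SNAREs Stx1a, downward in 14-7-0 and 14-14-0, and Snap25, downward in 14-14-0 and 0-0-2, and Pkp2, upward in 14-7-2 and downward in home cage mice. Their adjusted p was at least 0.683, and 2.52% to 6.97% of all genes were called in either direction in these groups. Pkp2, a desmosomal plaque protein, was called upward in 14-7-2 against 14-7-0 (0.28, limma p = 0.00866, adjusted p = 0.660, 2.03% of all genes called upward). Vamp2, a vesicle SNARE, was called upward in cohort 2 against cohort 1 (0.069, limma p = 0.0247, adjusted p = 0.325, 3.58% of all genes called upward).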

How the data were processed

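RNA of the dorsal hippocampus of 70 mice was sequenced as poly-A TruSeq libraries, 1 mouse each, with 50 bp single reads. The authors aligned the reads with ELAND v2e and Bowtie, kept unique alignments with at most 2 mismatches and deposited FPKM per gene symbol from the Tuxedo programs. The submitters' processing notes name Bowtie, Cuffnorm and the build mm10, without versions. No counts were used, and the read totals that the study lists by lane and barcode could not be tied to groups, so the number of libraries limits the precision and no counting interval is given. No column was left unmapped (0).

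FPKM were transformed as log2(FPKM + 0.1), so differences of low genes are understated. Genes averaging under 1 FPKM across the libraries were left out (11352 of 24346), which kept 12994 for the tests. Groups were compared on the 20 libraries of each pair by limma 3.58.1 in R 4.3.3 (moderated test, two-sided, trend, no covariate), with 0.05 as the limit of the unadjusted p for a call and Benjamini-Hochberg values over all genes given beside them. An F test over the 7 groups, a test of harvest cohort with group as covariate and an interaction term were fitted the same way. Correlations used log2 values less the group mean over 69 libraries, with 100000 permutations. The tests were also run on simulated data. Positions and promoters came from RefSeq tables of GRCm38.p6, the assembly of mm10, in which all 8 genes were matched. Python 3.11.15 and matplotlib 3.10.9 drew the figures.

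Text genes were the 8 members of the set, list genes that were called or that check a marker, the 10 genes most like the mean of the set and the 2 most like each member. Members and lists were chosen with earlier results of these data known. Nectin3 of the CA3 list is listed as Pvrl3. A few genes that met these rules are not reported here. The alternatives tried were minimum means of 0.1 and 5 FPKM, a pseudocount of 1, median ratio scaling, a joint fit, harvest cohort as covariate, a replicate block, each cohort alone, each library left out in turn, sedentary replicate 6 or 14-7-0 replicate 4 left out, 14-7-0 replicates 0 and 3 left out (added after seeing the data), an adjusted p under 0.05, and a Cyber-T style test on FPKM, the authors' kind of test, rewritten from its formula with a window of 101 genes and 10 prior degrees of freedom.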

Additional observations from a re-analysis of the deposited data

Results flagged for a closer look

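Each group of 10 libraries was searched, gene by gene, for a highest or lowest value whose gap to the next exceeded Dixon's 95% critical value. Of 56 combinations of gene and group 12 were flagged, where chance gives about 1 in 20, or 2.8. The genes varied together among libraries, so 1 low library can be flagged for several of them. The combinations are thus not independent, and 12 cannot be weighed against 2.8.

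Home cage replicate 7, the lowest library of its group for all 8 genes, was flagged for 6 of them, with 10.7 FPKM of Prox1, 2.92 of Dsp, 30.7 of C1ql3, 3.43 of Tdo2, 22.0 of Stxbp6 and 24.4 of Calb1. In the same library all 5 CA3 genes and all 6 oligodendrocyte genes were above their median over the libraries, and their part in the low values was not tested. In 14-14-0, replicate 3 was flagged as lowest for Dsp, 3.30 FPKM, and C1ql3, 27.4 FPKM. It also had the second highest sum of the mossy cell list of all 70 libraries, 107 FPKM, after sedentary replicate 6. In sedentary replicate 6 most of that sum was Calb2, while Calcrl and Csf2rb2 of the same list were low.

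In 0-0-2, replicate 8 was lowest for Lct at 2.91 FPKM. In 14-7-0, replicate 0 was highest for Lct, 31.4 FPKM, and for Tdo2, 11.1 FPKM, and replicate 4, the library with the most genes listed at 0, was highest for C1ql2 with 88.4 FPKM. Sedentary replicate 6 was not flagged for any gene, although it held the lowest value of all libraries for 7 of the 8. The rule takes the gap to the next lowest library of the group, which for those genes was replicate 9, also a low library. No group effect differed between the harvest cohorts after adjustment over all genes, with a smallest adjusted p of 0.770 in limma's interaction terms.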

How the results depend on the processing

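Of 896 values of single genes under the alternatives 806 kept their direction and their side of an unadjusted p of 0.05. A further 18 kept their direction and passed it where they had not, and 72 changed sign. No main value had passed it, so none could lose it under an alternative. Leaving out sedentary replicate 6 is also 1 of the fits with each library left out in turn, so some values count under both. Of those that changed sign, Dsp, C1ql3 and Lct in 14-7-2 against 14-7-0 in cohort 2 alone passed it with the new sign. The cause of these changes was not tested. A joint fit of all 7 groups, which shares 1 estimate of spread, called 3 granule cell genes in 14-0-0 (C1ql3, Lct, Tdo2, limma, 11.9% of all genes), 2 in 14-7-0 (C1ql3, Stxbp6, 6.90%), 2 in 14-7-2 (C1ql3, Tdo2, 8.33%), 3 in 0-0-2 (C1ql3, Calb1, Tdo2, 3.89%) and 2 in home cage (Prox1, Tdo2, 2.39%), with adjusted p of at least 0.375. In 0-0-2 the Cyber-T style test called 2 and leaving out 1 library at a time called 0 to 1, Calb1. The F test with harvest cohort 1 alone called 2, Tdo2 (limma p = 0.0162) and Calb1 (p = 0.0276), where 8.19% of all genes were called, and 14-7-2 against 14-7-0 in cohort 2 alone called 5. Replicate numbers were tried as a pairing: same-numbered libraries correlated over 0.1 in 2 to 7 of 10 pairs per comparison and correlated best with their own number in 0 to 4 of 10, so they were not taken as pairs. The replicate block called 1 granule cell gene in 0-0-2, Calb1 (limma p = 0.0356), and 0 in the other 7 comparisons.

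Values that changed sign are log2 differences. In harvest cohort 1 alone, against sedentary, they were -0.071 for C1ql2 in 14-0-0 and -0.031 for Tdo2 in 14-7-0. They were -0.094 for Prox1, -0.34 for Dsp, -0.24 for C1ql2, -0.18 for C1ql3, -0.12 for Lct, -0.15 for Tdo2, -0.15 for Stxbp6 and -0.24 for Calb1 in 14-7-2. They were -0.18 for Prox1, -0.22 for Dsp, -0.50 for C1ql2, -0.36 for C1ql3, -0.37 for Lct, -0.60 for Tdo2 and -0.21 for Stxbp6 in 14-14-0. They were -0.20 for C1ql2 in 0-0-2 and -0.035 for C1ql2 in home cage. Between exercise groups in cohort 1 they were 0.11 for Prox1, 0.027 for C1ql3, -0.069 for Lct and 0.048 for Stxbp6 in 14-0-0 against 14-7-0 and -0.22 for Prox1, -0.12 for Tdo2 and -0.098 for Calb1 in 14-7-2 against 14-7-0. In harvest cohort 2 alone they were 0.072 for Calb1 in 14-7-0 and 0.28 for Calb1 in 14-14-0 against sedentary. Between exercise groups in cohort 2 they were 0.080 for C1ql2 and -0.052 for Calb1 in 14-0-0 against 14-7-0 and 0.33 for Dsp, 0.15 for C1ql2, 0.24 for C1ql3, 0.29 for Lct and 0.21 for Stxbp6 in 14-7-2 against 14-7-0. Without sedentary replicate 6 they were -0.051 for Calb1 in 14-7-2, -0.090 for Lct and -0.13 for Tdo2 in 14-14-0 and -0.050 for Dsp, -0.16 for C1ql2, -0.022 for Lct and -0.037 for Stxbp6 in 0-0-2 against sedentary, and 0.041 for Prox1, 0.015 for Dsp and 0.12 for C1ql2 in harvest cohort 2 against harvest cohort 1. By the Cyber-T style test they were -0.036 for Calb1 in 14-7-2 and -0.039 for C1ql2 in 0-0-2 against sedentary, and 0.050 for Dsp and 0.011 for Lct in 14-7-2 against 14-7-0. With median ratio scaling it was 0.0031 for Calb1 in 14-14-0 against sedentary, and without 14-7-0 replicate 4 they were 0.022 for C1ql2 in 14-0-0 against 14-7-0 and 0.0039 for C1ql2 in harvest cohort 2 against harvest cohort 1, where Prox1 had -0.041 and Dsp -0.14. Without 14-7-0 replicates 0 and 3, an alternative chosen after seeing the data, they were 0.031 for Dsp and 0.080 for Lct in 14-7-2 against 14-7-0. When each library was left out in turn the differences ran from -0.046 to 0.11 for Calb1 in 14-0-0 against sedentary, from -0.14 to 0.017 for Calb1 in 14-7-0 against sedentary and from -0.10 to 0.062 for Calb1 in 14-7-2 against sedentary. In 14-14-0 against sedentary they ran from -0.090 to 0.73 for Lct, from -0.13 to 0.45 for Tdo2 and from -0.12 to 0.037 for Calb1. In 0-0-2 against sedentary they ran from -0.050 to 0.64 for Dsp, from -0.16 to 0.47 for C1ql2, from -0.022 to 0.94 for Lct and from -0.037 to 0.22 for Stxbp6. In 14-0-0 against 14-7-0 they ran from -0.043 to 0.065 for Prox1, from -0.21 to 0.022 for C1ql2 and from -0.0099 to 0.11 for Lct. In 14-7-2 against 14-7-0 they ran from -0.022 to 0.14 for Prox1, from -0.083 to 0.13 for Dsp, from -0.13 to 0.020 for C1ql3, from -0.064 to 0.10 for Lct and from -0.0027 to 0.097 for Calb1. No depth could be tied to a library, so no counting error can be set beside the low values of Lct, Dsp or Tdo2.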

Other observations

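Among the genes that ran most opposite to the mean of the 8 granule cell genes over the 69 libraries without sedentary replicate 6, by Spearman's rho with group means removed, were Gng3 (-0.70), Tmem141 (-0.68), Adam19 (-0.66) and Optn (-0.66). They were chosen after their values were seen. Gng3 is a G protein subunit of neurons. Necab2, a calcium-binding protein, had a rho of -0.65 and, in sedentary replicate 6, a level of 131 FPKM beside a mean of 33.4 in the other libraries.

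Among the marker lists the 5 tested newborn granule neuron genes were all positively related to the mature granule cell genes, from 0.21 for Igfbpl1 to 0.64 for Sox11.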
